A study of Homo sapiens with 2 samples.

Results

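MicroRNA genes with a C/EBPβ peak were examined in C/EBPβ-overexpressed HL-60 cells. They were taken from the list that the authors deposited, in which each line pairs 1 peak with 1 transcript, as every gene whose symbol is MIR followed by a digit, or starts with MIRLET7, leaving out host gene symbols ending in HG. This gave 196 of the 6143 gene symbols in the list, with 286 pairs and 248 of the 7029 peaks. The 2 libraries, both from C/EBPβ-overexpressed cells, were 1 chromatin immunoprecipitation against C/EBPβ and 1 input labelled as having no antibody. The list belongs to the immunoprecipitation, and the input was not analysed here. No group without overexpression was analysed here. HL-60 is a human leukaemia line labelled as a myeloblast, and no label names the construct, its promoter or whether the cells were 1 clone. With 1 library no value below has a replicate and no test between samples was possible. Intervals are exact 95% binomial ones, which cover counting over genes or peaks only.

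C/EBPβ belongs to the CCAAT/enhancer-binding proteins, basic leucine zipper factors, and acts in granulocytes, macrophages, liver and fat. A microRNA is cut from a hairpin in a longer primary transcript, and its seed, bases 2 to 8 of the mature strand, selects the messenger RNAs it represses. Many hairpins lie inside a host gene and are made from the host's transcript. The start of a microRNA gene in an annotation is the 5′ end of the hairpin, which is usually not where transcription begins.

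The mature strands of the microRNA genes best known in blood cells are shown first, because the peaks at their loci carry the results below. Sequences are from RefSeq (GRCh38.p14), 5′ to 3′, with the seed in capitals.
hsa-miR-223-3p: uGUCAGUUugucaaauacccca
hsa-miR-142-3p: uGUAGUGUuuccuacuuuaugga
hsa-miR-142-5p: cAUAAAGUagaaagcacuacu
hsa-miR-17-5p: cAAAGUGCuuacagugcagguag
hsa-miR-20a-5p: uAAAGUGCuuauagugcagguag
hsa-miR-18a-5p: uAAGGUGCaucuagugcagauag
hsa-miR-19a-3p: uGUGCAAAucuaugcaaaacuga
hsa-miR-19b-3p: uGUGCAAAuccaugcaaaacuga
hsa-miR-92a-3p: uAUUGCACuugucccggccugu
hsa-miR-23a-3p: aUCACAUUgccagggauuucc
hsa-miR-27a-3p: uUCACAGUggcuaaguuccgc
hsa-miR-24-3p: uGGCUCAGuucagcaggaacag
hsa-miR-146b-5p: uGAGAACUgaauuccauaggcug
hsa-miR-26b-5p: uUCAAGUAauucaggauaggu
hsa-let-7i-5p: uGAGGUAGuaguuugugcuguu
Of 67 microRNA genes with known roles in blood cells or their leukaemias, 14 had a listed peak (20.9%, interval 11.9 to 32.6). Among all 1911 microRNA genes of the RefSeq table the share was 10.2%. The 14 genes lay on 7 chromosomes and rested on 16 distinct peaks, since clustered hairpins share peaks. Of the 14, 6 were the hairpins from MIR17 to MIR92A1, all on the same 2 peaks. The interval counts every gene as independent, so it is too narrow for a comparison with 10.2%. The 67 genes were also chosen with earlier results of these data known. Of the 16 peaks, 4 were paired with microRNA genes only. A peak upstream of the hairpin was listed for 12 of the 14, and a peak over the hairpin start for 2, MIR142 and MIRLET7I.

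MIR223, whose product is among the most abundant microRNAs of neutrophils and which is a known target of C/EBPα, had 2 peaks on chromosome X (hg19, as are all peak positions, printed as the list gives them). The first, at 65237906 to 65238052, was 146 bases wide with its middle 732 bases upstream of the hairpin start at 65238711. The second, at 65240700 to 65241142, was 442 bases wide and lay 2210 bases downstream. Neither was paired with any other gene in the list.

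MIR142, a gene expressed throughout the blood lineages, had 6 peaks on chromosome 17, the most of any microRNA gene. From upstream to downstream of the hairpin start at 56408679, their middles lay 2043, 1036 and 109 bases upstream and 325, 1432 and 2998 bases downstream. Their widths in that order were 271, 762, 307, 163, 1398 and 1599 bases. The 307-base peak, at 56408635 to 56408942, covered the start and part of the hairpin. The 5 peaks other than the outermost upstream one were also paired with TSPOAP1-AS1, the antisense RNA gene that contains MIR142 on the opposite strand. No peak was listed for MIR142HG, the host gene that contains MIR142 on the same strand. The outermost upstream peak, at 56410587 to 56410858, was paired with MIR4736 and with no gene outside the microRNAs. Of the 6 peaks, 4 were also paired with the protein-coding gene TSPOAP1. The 2 widest, both downstream of the hairpin, were nearer to the starts of these neighbours: the 1599-base peak lay 471 bases from a TSPOAP1 start and the 1398-base peak 282 bases from a TSPOAP1-AS1 start.

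The 6 hairpins of the cluster that runs from MIR17 to MIR92A1 on chromosome 13, an oncogenic cluster known to be driven by MYC, shared 2 peaks. These lay at 92000899 to 92001048 and 92001217 to 92001525, 149 and 308 bases wide. Both were downstream of the start of the host gene MIR17HG, by 900 and 1298 bases, and upstream of every hairpin of the cluster (MIR17, MIR18A, MIR19A, MIR20A, MIR19B1 and MIR92A1). The second lay 1487 bases upstream of MIR17, the first hairpin, and 2196 bases upstream of MIR92A1, the last one. No listed peak lay between the hairpins. As the sequences above show, miR-17-5p and miR-20a-5p share 1 seed and miR-19a-3p and miR-19b-3p another.

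At the cluster of MIR23A, MIR27A and MIR24-2 on chromosome 19, which PU.1 is known to regulate in mouse myeloid cells, 1 peak was paired with all 3 hairpins. It spans 13946873 to 13947110, and its middle lay downstream of their starts by 482, 340 and 182 bases. It overlapped part of the MIR24-2 hairpin and was 112 bases from the listed start of the host gene MIR23AHG. That listed start is itself downstream of all 3 hairpin starts, so this peak does not mark a host start upstream of the cluster. A second peak, at 13950341 to 13950507, lay 2951 bases upstream of MIR23A and was paired with no other gene. This upstream peak stood just inside the 3000-base window of the list, so MIR27A and MIR24-2, whose starts are farther from it, were not paired with it.

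Of the other listed genes of this group, MIRLET7I, a member of the let-7 family of growth-restraining microRNAs, had 2 peaks on chromosome 12. The peak at 62997440 to 62997649 covered the whole hairpin and its middle was 79 bases past the start. The other, at 62996171 to 62996497, was 1131 bases upstream, and both were also paired with the noncoding gene LINC01465. No peak was listed for MIRLET7IHG, the host gene that contains MIRLET7I on the same strand. MIR146B, which dampens Toll-like receptor signalling, had 1 peak at 104194408 to 104194815 on chromosome 10, 1657 bases upstream, shared with CUEDC2. MIR26B, in an intron of the phosphatase gene CTDSP1, had 1 peak, 2717 bases upstream of the hairpin and 174 bases from a CTDSP1 start. The 14 genes thus included loci with a peak on the hairpin and loci with a peak only near the host's start, as the map of their peaks shows.

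**Figure D1:**
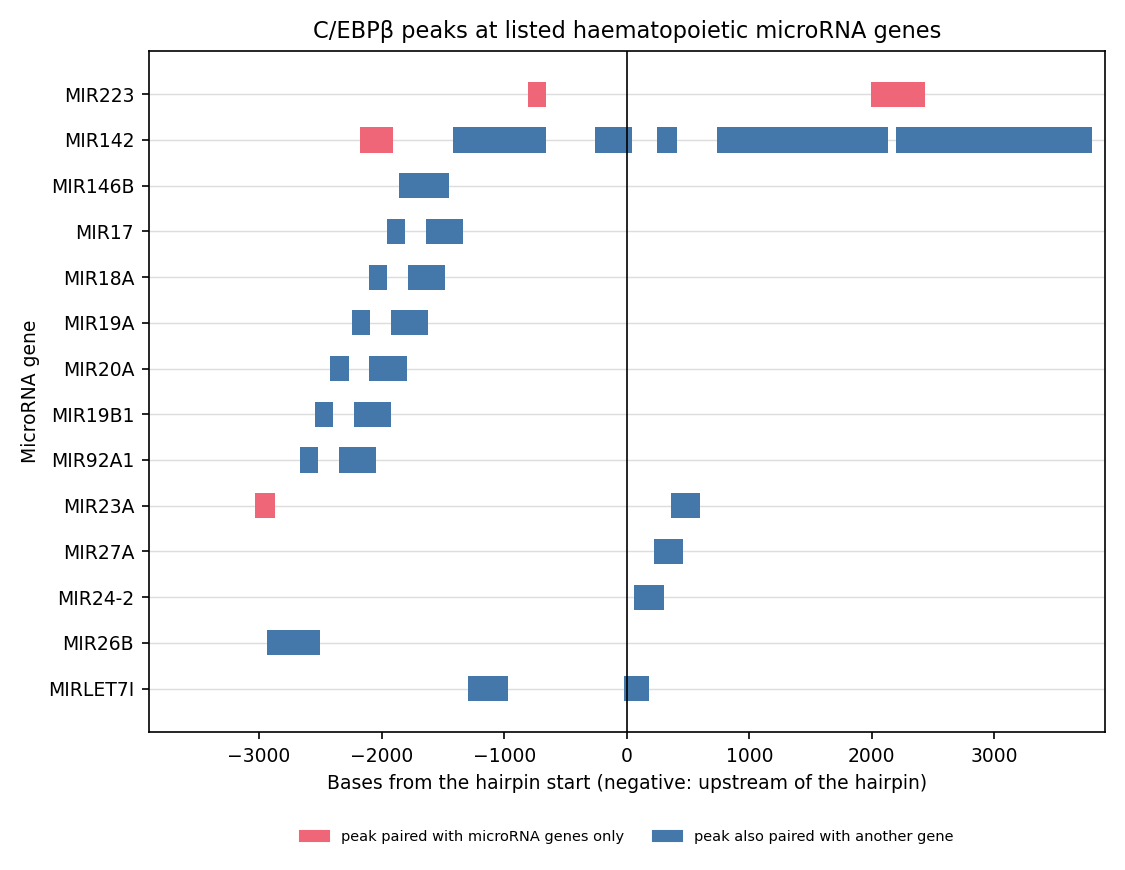
Listed C/EBPβ peaks (bars, drawn to width) at the 14 listed haematopoietic microRNA genes, one row per gene, in bases from the hairpin start with upstream to the left. MIR142 carries 6 peaks around its start, while the 6 hairpins from MIR17 to MIR92A1 share 2 peaks, both upstream; red bars were paired with microRNA genes only and blue bars also with another gene.

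The other 53 genes of this group had no peak within the window of the hairpin, among them MIR155, MIR21, MIR146A and MIR150. A gene containing the hairpin on the same strand was found in RefSeq for 37 of the 53, and this host had a listed peak for 12. Over all 809 microRNA genes without a listed peak that lie in such a host, the host was listed for 201 (24.8%, interval 21.9 to 28). A host could be found only where the strands of hairpin and gene were both known. Hosts may therefore be missing from all these counts, and none was found for MIR93, for example. MIR21 lies in VMP1, a membrane protein gene of autophagy, which had a peak 5 bases from a start. MIR106B and MIR25 lie in the replication gene MCM7, with 2 peaks, the nearest 82 bases from a start. MIR15A and MIR16-1 lie in DLEU2, a noncoding gene often deleted in chronic lymphocytic leukaemia, which had 4 peaks. MIR181A1HG, host of MIR181A1 and MIR181B1, had 1 peak, 1763 bases from its start. MIR155HG was not in the list. A hairpin far from its host's start can therefore be missing from the list although the host is in it.

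Of the 1911 microRNA genes of the RefSeq table, 195 (10.2%, interval 8.88 to 11.6) had a listed peak. The share was 26.5% of 19392 protein-coding genes (interval 25.8 to 27.1), 9.02% of 6660 lncRNA genes with a curated transcript and 6.52% of 1196 snoRNA genes. These are descriptions, since the transcripts the authors paired may not include every gene of the table. One symbol, MIR7641-2, did not match the table. A single peak was listed for 127 of the 196 genes, 2 peaks for 54, 3 for 11, 4 for 3 and 6 for 1.

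**Figure D2:**
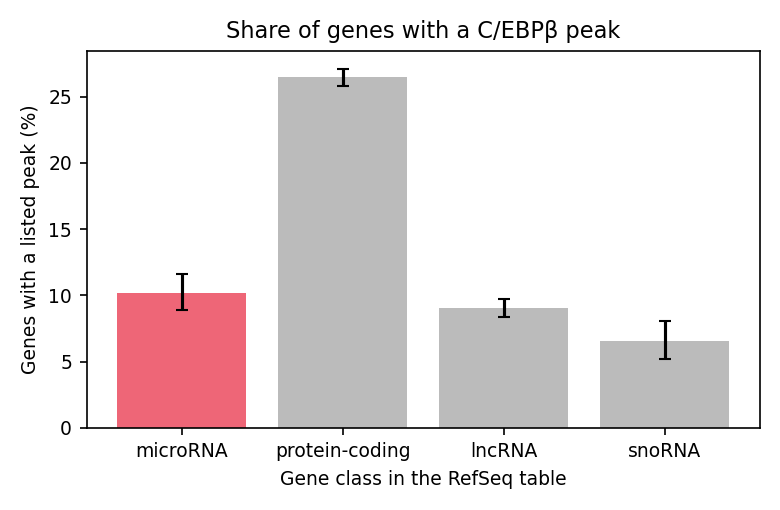
Share of RefSeq genes of each class with at least 1 listed C/EBPβ peak, in percent, with exact 95% binomial intervals as error bars. MicroRNA genes stand at 10.2%, protein-coding genes at 26.5%, lncRNA genes with a curated transcript at 9.02% and snoRNA genes at 6.52%.

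Not every listed gene is a separate locus. The 196 genes had 192 distinct starts, because MIR1244-1, MIR1244-2, MIR1244-3 and MIR1244-4 were all placed at 232578023 on chromosome 2, and MIR4444-1 and MIR4444-2 both at 178077453 on that chromosome. RefSeq gives 7 of the genes another chromosome than the list does, namely MIR1244-2, MIR1244-3, MIR1244-4, MIR4444-2, MIR548AN, MIR548D1 and MIR548H4. Those names belong to families of related hairpins. Because the list and RefSeq differ on the chromosome, the peaks at these placements cannot be assigned to 1 copy by name.

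Most peaks at microRNA genes belonged to another gene as well. Of the 248 peaks, 155 (62.5%, interval 56.2 to 68.5) were also paired with a gene that is not a microRNA gene, and for 141 of these a partner was protein-coding. The other 93 were paired with microRNA genes only. Among the 6781 peaks without a microRNA gene, 5036 were paired with a single protein-coding gene and 296 with a single lncRNA gene. All peaks were shared with another gene for 107 of the 196 genes, and none for 75. In 105 of the 155 shared peaks (67.7%, interval 59.8 to 75) the middle lay nearer to the other gene's start, and in 50 nearer to the microRNA start. The median distance of the 155 was 935 bases to the microRNA start and 438 bases to the other gene's start.

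**Figure D3:**
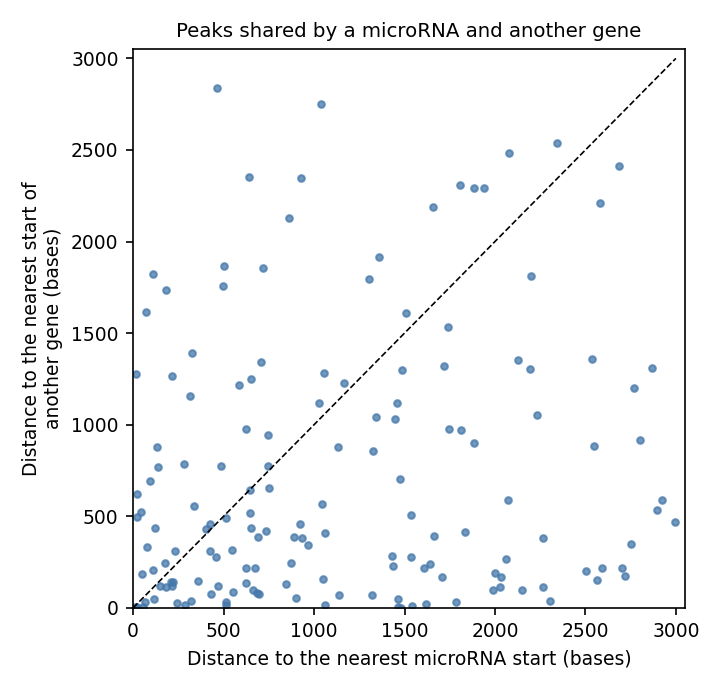
Each point is 1 of the 155 peaks paired with a microRNA gene and another gene, placed by the distance in bases of its middle to the nearest microRNA start (horizontal) and to the nearest start of another gene (vertical). Points under the dashed line of equal distance, 105 of 155, are nearer to the other gene.

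The middle of 113 of the 248 peaks (45.6%, interval 39.3 to 52.0) lay within 1000 bases of the nearest microRNA start, while 70.6% of the 6781 other peaks (interval 69.5 to 71.7) lay within 1000 bases of their nearest start. An even spread over the window would give 33.3%. Among peaks with no other gene in the window, 29 of 81 with a single microRNA gene lay within 1000 bases (35.8%, interval 25.4 to 47.2), against 3461 of 5036 with a single protein-coding gene (68.7%, interval 67.4 to 70.0) and 160 of 296 with a single lncRNA gene (54.1%, interval 48.2 to 59.8). The first 500 bases held 14 of the 93 peaks paired with microRNA genes only and the last 500 bases held 18. For all other peaks these counts were 3612 and 346 of 6781. Peaks of microRNA genes had a median width of 236.5 bases (interval 219 to 252), close to the 229 bases of the others (interval 226 to 232).

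**Figure D4:**
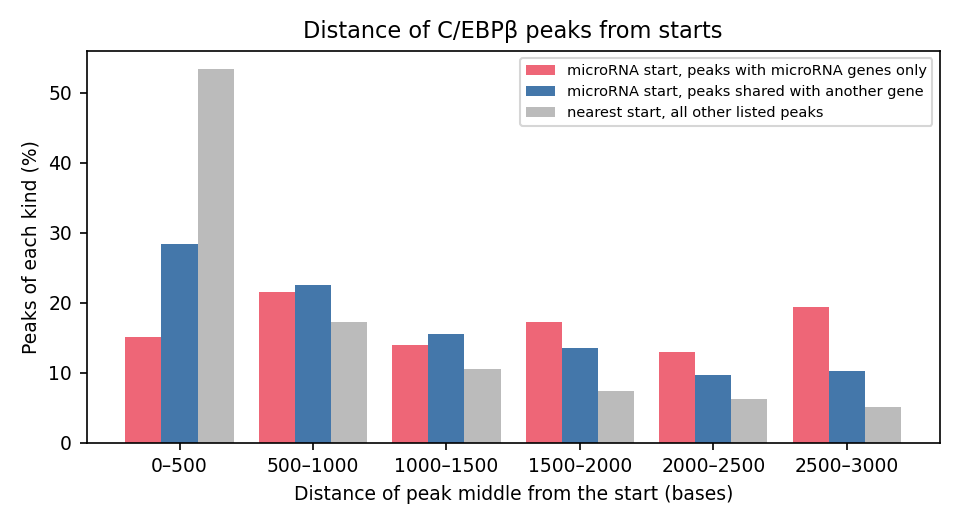
Percent of peaks of each kind by the distance in bases of the peak middle from the start, in 500-base steps. Peaks paired with microRNA genes only (red, 93) are spread over the window, peaks shared with another gene (blue, 155) decline with distance from the microRNA start, and all other listed peaks (grey, 6781, nearest start) have 53.3% in the first step.

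The strand of the hairpin in RefSeq, taken to be the same in hg19, gave a direction to 216 of the 248 peaks. Of these, 139 lay upstream of the nearest microRNA start (64.4%, interval 57.6 to 70.7) and 77 downstream. The upstream share was 95 of 137 for peaks shared with another gene (69.3%, interval 60.9 to 76.9) and 44 of 79 for peaks paired with microRNA genes only (55.7%, interval 44.1 to 66.9). A total of 101 of the 163 genes with a known strand lay in a gene on the same strand, and for 56 of the 101 this host was paired with a peak of the hairpin. Hosts of this kind included the stress factor gene DDIT3 with MIR616, the ribosomal gene RPL28 with MIR6805, the kinase genes PIM3 with MIR6821 and IKBKE with MIR6769B, and FOXP1 with MIR1284.

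At least 3 peaks were listed for 15 genes. MIR616 had 4 peaks on chromosome 12. All were paired with its host DDIT3, whose product CHOP is itself a C/EBP protein. Their middles were 497 and 17 bases downstream and 483 and 1536 bases upstream of the hairpin start at 57913042. The peak at 57912952 to 57913098 covered part of the hairpin and was farther, at 1275 bases, from the nearest DDIT3 start. MIR3143 had 4 peaks upstream at 232 to 1744 bases, all shared with the divergent histone genes H2AC12 and H2BC12. MIR6892, in the zyxin gene ZYX, had 4, of which the 2 upstream were shared with ZYX and the 2 downstream, at 2167 and 2815 bases, were paired with no other gene.

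MIR378A, in the first part of the metabolic coactivator gene PPARGC1B, had peaks 1457 and 717 bases upstream, of 732 and 552 bases width and shared with PPARGC1B, and 1 at 2807 bases downstream that was not. MIR422A, on chromosome 15, had 1 peak paired with no other gene, 879 bases from its start. The mature strands of these genes share the seed CUGGACU, shown in capitals.
hsa-miR-378a-3p: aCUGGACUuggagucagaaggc
hsa-miR-422a: aCUGGACUuagggucagaaggc
MIR3190 and MIR3191, which overlap on opposite strands in the apoptosis gene BBC3 (PUMA), shared 3 peaks on chromosome 19. The widest, 805 bases at 47730665 to 47731470, was not paired with BBC3, and the one at 47732007 to 47732315 was, at 2290 bases from a BBC3 start. MIR3649 had 3 peaks on chromosome 12 at 95, 1850 and 2155 bases upstream, none paired with another gene. Peaks of the other genes with 3 were shared with TRIM41 at MIR4638, NOTCH1 at MIR4674, the endoplasmic reticulum chaperone gene CALR at MIR6515, SF3A2 and PLEKHJ1 at MIR6789, GPR108 and in part TRIP10 at MIR6791, and ROCK1P1 at MIR8078. ROCK1P1 is a partial copy of ROCK1, so reads there may map to either. MIR4736, beside MIR142, shared 2 of its 3 peaks with TSPOAP1-AS1. Among the genes named for their wide peaks, MIR639 had 1 of 793 bases, shared with TECR, a fatty acid elongation gene.

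**Figure D5:**
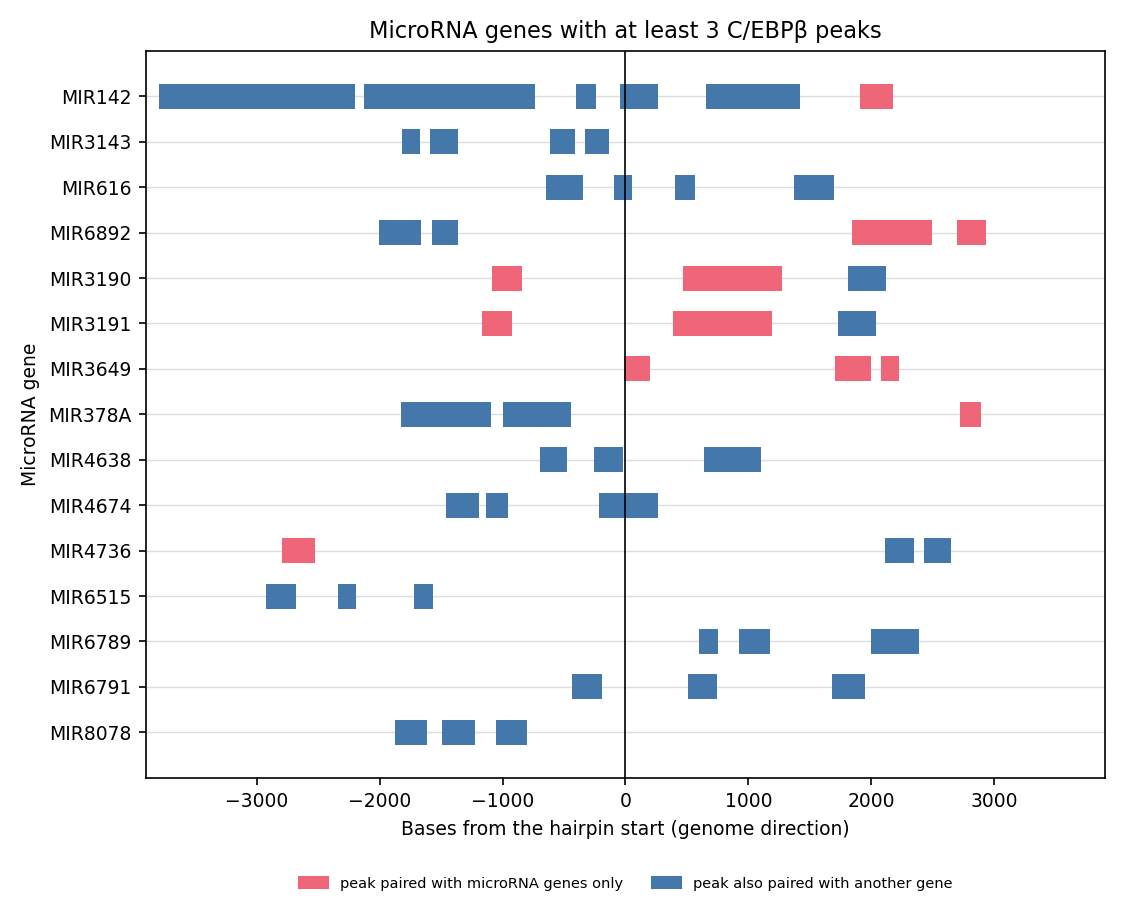
Listed C/EBPβ peaks (bars, drawn to width) at the 15 microRNA genes with at least 3 peaks, in bases from the hairpin start in genome direction, so that strand is not taken into account. Red bars were paired with microRNA genes only and blue bars also with another gene; all 3 peaks of MIR3649 are red.

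A peak middle within 100 bases of the hairpin start was listed for 16 of the 196 genes (8.16%, interval 4.74 to 12.9). The nearest were MIR5001 at 11 bases, MIR616 at 17, MIR1915 at 20, MIR4674 and MIR4741 both at 23, MIR4757 at 27, MIR4442 at 43, MIR4519 at 49, MIR1181 at 53 and MIR5087 at 54. Of these 10, MIR4757 and MIR5087 were paired with no other gene. The others had a partner, such as CDC37, a kinase co-chaperone gene, whose start was 4 bases from the MIR1181 peak, and EIF4E2, a translation repressor gene, whose start was 2 bases from the MIR5001 peak. The next genes by distance of a peak paired with microRNA genes only were MIR571 at 82 bases, MIR3649 at 95, MIR4706 at 121, MIR3175 at 125 and MIR4437 at 130. Beyond 100 bases, MIR199B and MIR3154, both on the strand opposite to the dynamin gene DNM1, shared 2 such peaks, and MIR1976, in the kinase gene RPS6KA1, had 1 at 347 bases. MIR1225, MIR6815, MIR6732, MIR6792, MIR759, MIR614, MIR5194, MIR5583-1, MIR4521 and MIR320C1 had their nearest peak of this kind between 309 bases at MIR1225 and 600 bases at MIR320C1. The peak of MIR5583-1 was shared with MIR5583-2.

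For 13 genes a peak covered the whole hairpin. The hairpins of MIRLET7I and MIR4757 are shown because their letters are part of the peak's DNA, with the mature strands in capitals, from RefSeq (GRCh38.p14, both on the plus strand).
MIRLET7I: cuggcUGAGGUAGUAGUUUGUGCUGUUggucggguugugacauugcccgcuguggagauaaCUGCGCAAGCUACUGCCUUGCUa
MIR4757: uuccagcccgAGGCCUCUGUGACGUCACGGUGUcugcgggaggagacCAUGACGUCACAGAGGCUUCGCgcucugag
The C/EBP motif TTGCNNAA, searched on both strands with T for U, was in 0 of the 13 hairpins and in 2.63% of all 1560 RefSeq hairpins. The same holds for its palindromic case TTGCGCAA, with 0 of 1560, and the composite C/EBP-ATF motif TTGCATCA, with 0 of 13 and 0.192% of all. A hairpin is only a small part of a peak. The palindrome TGACGTCA, the site of CREB and ATF factors, was searched for after the MIR4757 sequence had been seen. It is in both arms of that hairpin, whose peak lay at 19548025 to 19548407 on chromosome 2, and in no other of the 1560.

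Promoter windows, from 250 bases before to 50 bases after a start, were read from RefSeq for genes whose start lay within 100 bases of the middle of a microRNA gene's peak. There were 30 such genes, and 16 had a single window. Both strands were searched. TTGCNNAA was in 2 of the 16 windows (12.5%), against 10.8% of the windows of all 22114 genes with a single window, and TTGCATCA was in 1 (6.25%), against 0.99%. TTGCGCAA was in none, against 0.095%. Over all 35116 windows, those of genes with several included, the shares were 10.5% for TTGCNNAA, 0.866% for TTGCATCA and 0.151% for TTGCGCAA. The 250 bases before the start are printed for IARS1, an aminoacyl-tRNA synthetase gene that hosts MIR3651, and for C18orf32, whose peak covers the MIR1539 hairpin (GRCh38.p14, minus strand, chr9:92293698-92293947 and chr18:49487235-49487484). Capitals mark the motif.
IARS1: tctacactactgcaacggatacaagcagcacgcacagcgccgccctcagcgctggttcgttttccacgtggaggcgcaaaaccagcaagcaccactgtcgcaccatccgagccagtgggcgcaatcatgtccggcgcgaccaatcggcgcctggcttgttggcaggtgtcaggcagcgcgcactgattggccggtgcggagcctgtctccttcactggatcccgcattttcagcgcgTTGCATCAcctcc
C18orf32: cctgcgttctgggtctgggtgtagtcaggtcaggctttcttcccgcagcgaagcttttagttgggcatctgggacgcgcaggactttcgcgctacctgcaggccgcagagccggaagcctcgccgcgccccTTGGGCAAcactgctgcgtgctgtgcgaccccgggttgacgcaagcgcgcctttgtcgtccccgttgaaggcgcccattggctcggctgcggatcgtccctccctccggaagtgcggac
TTGCATCA begins 13 bases before the IARS1 start of the RefSeq window. The peak at 95055816 to 95056116 on chromosome 9 had its middle 72 bases from the listed IARS1 start and 1137 bases from the MIR3651 start. In C18orf32 the match is on the other strand, so the capitals fit TTNNGCAA, the reverse complement of TTGCNNAA. It begins 119 bases before the C18orf32 start of the RefSeq window. The peak at 47013486 to 47013864 on chromosome 18 lay 31 bases from the listed C18orf32 start and 67 bases from the MIR1539 start. The start of a RefSeq window need not be the listed start, so the motif and peak distances cannot be combined. A match is a description of letters and not a bound site.

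The genes of microRNA processing were listed for 14 of 27 (51.9%, interval 31.9 to 71.3), beside 26.5% of all protein-coding genes. DROSHA, the nuclear enzyme that cuts the hairpin free, had 1 peak 1108 bases from a start, and DICER1, which cuts the hairpin loop in the cytoplasm, had 2, the nearest 86 bases away. The listed members with the nearest peaks were the RNA editing gene ADAR at 41 bases, with 2 peaks and the widest of 965 bases, DICER1, the silencing scaffold gene TNRC6B at 94, AGO3 at 132 and HSP90AA1, which encodes a chaperone that helps load Argonaute, at 159. The other listed members were DDX5, SRSF3, RAN, TARBP2, TNRC6A, TUT4, HNRNPA1 and HSPA8. Some members have other roles too, such as ADAR and HSP90AA1, so the share is not that of genes particular to this pathway. No peak was listed for DGCR8, the partner of DROSHA, for the exporter gene XPO5, or for AGO1, AGO2 and AGO4. DDX17, PRKRA, TNRC6C, LIN28A, LIN28B, TUT7, DIS3L2 and KHSRP were likewise without one.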

How the data were processed

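Chromatin immunoprecipitation sequencing was done on 1 library and 1 input library, as the labels give them. BWA 0.7.10, SAMtools, MACS2 2.1.1 and build hg19 are named in the submitters' processing notes, with no role given. No source used here gives the peak threshold or the use of the input. The deposited table gives peak positions, a RefSeq transcript, a symbol, a distance and a score. In the deposited values the score follows from the distance alone (largest difference 5e-13), so it carries no peak height and was not used. Read depth, and so the precision of each peak, is unknown. The distance runs from the transcript start to the peak middle: 3742 of 3744 transcripts with several peaks gave 1 start within 2 bases. It is not stated whether the first base is numbered 0 or 1.

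With Python 3.11.15, pandas 2.3.3 and scipy 1.17.1, transcripts were matched to RefSeq genes (GRCh38.p14) by accession (12331), symbol (129) or older symbol (55), and 17 stayed unmatched. Its positions served only to find which genes contain a hairpin. No test was run, since peaks of 1 library are not replicates; intervals of medians are exact binomial ones. Counting was checked on simulated data. Genes were named by a rule: listed haematopoietic microRNA genes, at least 3 peaks, the 10 nearest and 5 widest peaks, up to 20 with a peak paired with microRNA genes only, and partners; MIR422A, MIR7641-2, the genes at repeated placements and the hosts named were chosen after their values were seen. The promoter search used partner genes, since RefSeq windows here hold no microRNA genes. Of 10 myeloblast marker genes, 8 had a peak (80%, interval 44.4 to 97.5), beside 26.5% of all protein-coding genes. ELANE and CD33 had none, and the 1 peak of MPO lay 2896 bases from a start. A peak is not a level of expression. One gene that the rule names for its wide peak is not reported here. Members and lists were chosen with earlier results of these data known.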

Additional observations from a re-analysis of the deposited data

How the results depend on the processing

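Of 28 values under other settings, 15 stayed within 1.5 times the reported count or inside its interval. Keeping 1 nearest start per peak left 119 microRNA genes (6.23%) and 143 peaks; 0% of these were shared, by construction. Peaks wider than the 229-base median left 119 genes, of which 118 matched the RefSeq table (6.17% of its 1911 microRNA genes), and 131 peaks with a median width of 311 bases, also by construction. Pairs within 1000 bases left 102 genes (5.34%) and 113 peaks, of which 54.9% were shared, at a median distance of 483 bases. The shorter median is by construction, and this setting also dropped partners beyond 1000 bases. With partners kept over the full window, 79 of the 113 peaks were shared. Choosing members by RefSeq match gave 195 genes and 247 peaks, and counting protein-coding partners only gave 56.9% shared. No paired analysis was possible because there is 1 ChIP library and no test. With no peak height, strong and weak peaks could not be separated.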

Other observations

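Several microRNA genes known mainly from other tissues also had peaks paired with microRNA genes only; these were chosen after their values were seen. MIR200C and MIR141, neighbouring genes that maintain the epithelial state, shared 2 peaks on chromosome 12, at 7070628 to 7070826 and 7071355 to 7071789. The second was 434 bases wide and lay 1289 bases upstream of MIR200C and 1687 bases upstream of MIR141. Their main strands are shown with the seed in capitals, from RefSeq (GRCh38.p14).
hsa-miR-200c-3p: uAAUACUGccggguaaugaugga
hsa-miR-141-3p: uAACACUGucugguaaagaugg
The neuronal microRNA genes MIR128-2 and MIR9-3 had 1 such peak each, 1053 and 2230 bases from the hairpin start, and MIR139, MIR708 and MIR339 had 1 each at 2707, 2360 and 1454 bases. MIR101-1 and MIR3671 shared 1 peak of 507 bases on chromosome 1.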
